A study of Mus musculus with 12 samples.

Results

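Cytochrome P450 genes encode haem-containing monooxygenases, and their transcripts were measured by RNA-seq in epididymal white adipocytes (eWAs), the fat cells of a large intra-abdominal fat depot of the male mouse. The family was taken as every row of the deposited gene count matrix whose symbol is Cyp followed by a family number, a subfamily letter or letters and a gene number, which gave 97 of 20295 genes. Members were chosen by this name pattern, which uses no measured value. The family itself was chosen by the log2 fold changes of its members, since it was taken up with those of Cyp1a1 and Cyp2ab1 in these libraries already known, so the values of these genes are a description and are no evidence about the family as a whole. The pattern leaves out 8 symbols that begin with Cyp, namely the cytochrome P450 gene Cyp51, a sterol demethylase that is therefore not covered here, and 7 Cypt genes, which belong to another family.

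The eWAs came from lean male C57/BL6J mice, whose age is not given in the sources used here. Mature adipocytes were floated from collagenase-digested tissue, set in a hydrogel at 50000 cells per well and cultured for 2 days. The vehicle group received DMSO. The ISO group was stimulated for 3 h with isoproterenol, an agonist of beta-adrenergic receptors that raises cAMP and starts lipolysis. The Lip group received inhibitors of the triglyceride lipases ATGL and HSL, and the Lip+ISO group received these inhibitors and then ISO for 3 h. Each group had 3 libraries, so that the response to ISO could be compared with lipolysis intact and with lipolysis blocked. Between 22632220 and 43707557 reads per library were assigned to genes. The cytochrome P450 genes together took between 391 and 495 CPM of a library (reads scaled to a common depth, with TMM factors for composition), and between 58 and 80 of the 97 genes had at least 1 read in a library. The 8 adipocyte markers summed to between 23570 and 42910 CPM, and none was at 0 in all 12 libraries.

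Cytochrome P450 enzymes insert an oxygen atom into small lipophilic molecules, with electrons passed on by the reductase Por in the endoplasmic reticulum and by ferredoxin in mitochondria. Members of the Cyp1, Cyp2 and Cyp3 families are best known for the oxidation of drugs and other foreign compounds in liver, and many also oxidise fatty acids. Cyp4 enzymes hydroxylate fatty acids at their far end. Others make or break down steroid hormones, bile acids, vitamin D and retinoic acid. In adipose tissue the family is mostly discussed for fatty acid and eicosanoid oxidation and for the handling of lipophilic compounds stored in fat.

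Most members had few or no assigned reads in these cells. Of the 97 genes, 32 (33%) had enough reads to be compared between groups and 65 (67%) were too low. Among those too low, 3 genes (Cyp2b19, Cyp3a41a and Cyp4a12a) had no read in any library. The 3-count limit is 0.0678 CPM in the deepest library and 0.132 CPM in the one with the highest limit. Of the 50-base stretches of their annotated transcripts, 98.6% for Cyp3a41a and 48.9% for Cyp4a12a also occur in other genes. Reads of 50 bases there cannot be told apart, so the limit was not taken to cover them, and other genes too low to compare also share stretches. A further 52 of the genes too low had reads but fewer than 10 in every library. The other 10 reached at least 10 reads in a library and still failed the filter. These were Cyp2d11, Cyp2d26 and Cyp2j5 with at most 12 reads in a library, Cyp24a1 also with at most 12, Cyp11a1 and Cyp27b1 with at most 11, and Cyp2b23, Cyp46a1, Cyp4a29 and Cyp4f14 with at most 10. Because the filter keeps a gene that is high in 1 group alone, the 32 compared genes are not a neutral sample of the family.

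The role of a gene divided the family unevenly. All 6 genes of steroid hormone synthesis (the Cyp11, Cyp17, Cyp19 and Cyp21 families) were too low to compare. The same held for 12 of 20 Cyp4 genes and 40 of 55 genes of the Cyp2 and Cyp3 families other than Cyp2r1. Both Cyp1a1 and Cyp1b1 were compared among 3 Cyp1 genes, and 3 of 6 sterol and bile acid genes, 2 of 3 Cyp26 genes of retinoic acid breakdown and 1 of 3 vitamin D genes were compared as well. Per kilobase of counted length, the Cyp4 genes held 49.8% of the summed level of the family, the Cyp2 and Cyp3 genes 22.2%, the Cyp1 genes 13.7% and Cyp20a1, an orphan member whose substrate is not known, 11.2%. Steroid hormone genes held 0.0807%.

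A small number of genes carried the family. Averaged over the 12 libraries, Cyp4f17 led at 29.7 ± 7.05 CPM per kb (SD, n = 12), followed by Cyp4v3 at 26.6 ± 3.96, Cyp1b1 at 22.4 ± 3.17 and Cyp20a1 at 18.95 ± 1.28 CPM per kb. Cyp4b1 followed at 12.8 ± 4.96, Cyp2e1 at 10.5 ± 2.64, Cyp4f16 at 8.74 ± 0.716 and Cyp2j6 at 7.79 ± 0.652 CPM per kb. Next came Cyp4f13 at 5.36 ± 0.863 and Cyp2u1 at 3.95 ± 1.12 CPM per kb. These SDs span all 4 groups. Cyp4f17 and Cyp4v3, Cyp4b1 and Cyp2e1, and Cyp2e1 and Cyp4f16 differed by less than the larger of their SDs, and the other neighbours in this order differed by more. The leading 5 genes held 65.3% of the summed level and the leading 10 held 86.8%. The next gene, Cyp2ab1, reached 3.35 CPM per kb on average, but with a coefficient of variation of 158% over the libraries, against 6.74% for Cyp20a1 and 8.19% for Cyp4f16.

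**Figure D1:**
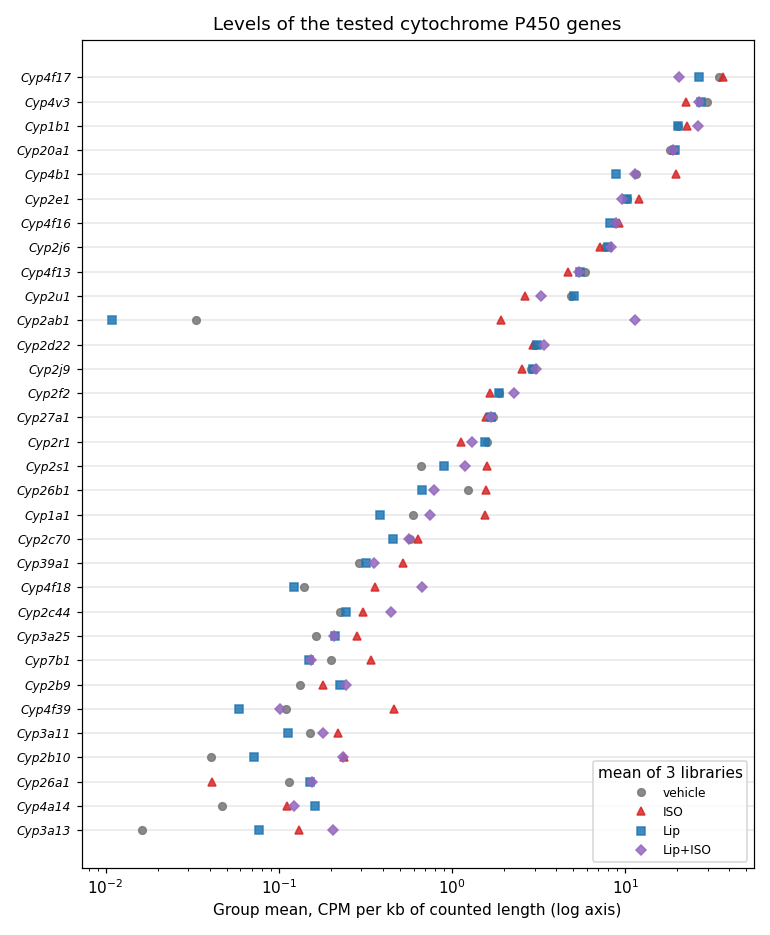
Mean level of each of the 32 compared cytochrome P450 genes in each group, as CPM per kilobase of counted length on a log axis, with 1 symbol per group (mean of 3 libraries). The symbols of most genes lie close together, while those of Cyp2ab1 run from 0.0109 in the Lip group to 11.4 in the Lip+ISO group.

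With lipolysis intact, ISO raised 5 of the 32 compared genes (15.6%) and lowered 2 (6.25%). Passing means an adjusted p at or under 0.05 in edgeR's quasi-likelihood test over all 13543 compared genes. Counts are from the fit without a term for replicate number (a replicate block), unless the block is named. The background over all compared genes was 12.3% higher and 13.9% lower. The genes that rose were Cyp2ab1, Cyp2b10, Cyp3a13, Cyp1a1 and Cyp4b1, and those that fell were Cyp2u1 and Cyp4v3. At a minimum change of 1 log2 unit 4 rose (background 5.68%) and 0 fell (background 1.8%), and the libraries of the 2 groups did not overlap for 9 higher members (background 20.7%) and 3 lower ones (background 22.6%). Over the members the log2 fold change had a median of 0.279, beside 0.00176 over all compared genes. Of the 32, 22 (68.8%) lay above 0, against 50.2% of all compared genes. The filter keeps genes that are high in 1 group alone, and the family was taken up with Cyp1a1 and Cyp2ab1 known. Medians and shares above 0 are therefore a description and no evidence about the family. With lipases inhibited, ISO raised 4 genes (12.5%, background 11.5%), namely Cyp2ab1, Cyp4f18, Cyp2b10 and Cyp1b1, and lowered Cyp2u1 and Cyp4f17 (6.25%, background 15.8%). The median was then 0.12 beside -0.00407 over all compared genes, with 21 of 32 (65.6%) above 0, against 49.5% of all compared genes. There 3 members rose by at least 1 log2 unit (background 4.19%) and 0 fell by as much (background 3.16%), and 5 higher (background 17.2%) and 2 lower (background 22%) did not overlap. Scaled by library totals in place of TMM factors, that comparison gave 2 higher and 2 lower members, with the median of all compared genes shifted to -0.115. Cyp2ab1, Cyp2b10 and Cyp2u1 passed in both responses.

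Cyp2ab1, a little-studied member of the Cyp2 family on chromosome 16 (20308460 to 20325477, minus strand, mm9), moved most among the members. It gave 1, 3 and 3 reads in the vehicle libraries and 1, 0 and 2 reads in the Lip libraries, at or under the 3-count limit in each. It gave 68, 265 and 157 reads in the ISO libraries and 465, 864 and 1081 reads in the Lip+ISO libraries. Every library with ISO therefore lay above every library without it, and every Lip+ISO library above every ISO library.

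Scaled to depth, Cyp2ab1 averaged 5.26 ± 2.00 CPM (SD, n = 3) with ISO and 31.3 ± 12.1 CPM with Lip+ISO. Against vehicle, ISO raised it by 5.86 ± 0.56 (log2 fold change ± SE, edgeR adjusted p = 1.0e-05). Against Lip, Lip+ISO raised it by 9.78 ± 0.59 (adjusted p = 1.1e-07). Because the groups without ISO rest on a few reads, these fitted values depend on the prior count. The ratio of summed depth-scaled reads was 63.0 for ISO over vehicle, with an exact 95% counting interval of 30.3 to 157, and 1010 for Lip+ISO over Lip, with an interval of 344 to 4880. Counting intervals and limits cover counting error alone.

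Under ISO, the lipase inhibitors raised Cyp2ab1 further, by 2.56 ± 0.34 (edgeR adjusted p = 4.8e-04), from 490 reads over the 3 ISO libraries to 2410 over the 3 Lip+ISO libraries. The depth-scaled ratio was 5.76 with a counting interval of 5.22 to 6.36. Whether the response to ISO itself differed with the inhibitors was tested as an interaction. For Cyp2ab1 it was 3.93 ± 1.33 (edgeR adjusted p = 0.196, 95% interval 1.04 to 6.81) and did not pass without a replicate block. With the block edgeR gave 4.01 ± 0.75 (adjusted p = 0.0101), and DESeq2 gave 4.08 with an adjusted p of 0.00882. The pairing by replicate number that the block assumes was not met by every pair of libraries in the interaction. Without ISO, Cyp2ab1 had 3 reads in the Lip group and 7 in the vehicle group, a ratio of 0.361 with a counting interval of 0.0602 to 1.58. In each of the 3 comparisons that it passed, Cyp2ab1 also passed in all 15 fits that left out a library or a replicate number.

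Cyp2b10 and Cyp3a13 are enzymes of drug metabolism, best known from liver and gut, that were near the limit of detection here. Cyp2b10 stood at 0.032, 0.042 and 0.157 CPM in the vehicle libraries and at 0.352, 0.520 and 0.476 CPM in the ISO libraries, a rise of 2.53 ± 0.61 (edgeR adjusted p = 0.0090) that rests on 6 against 42 reads. In the Lip libraries it stood at 0.103, 0.193 and 0.111 CPM and in the Lip+ISO libraries at 0.485, 0.519 and 0.318 CPM, a rise of 1.67 ± 0.55 (adjusted p = 0.0383). In both responses the libraries with ISO lay above those without.

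The second of these calls for Cyp2b10 was lost in 12 of 15 leave-out fits, with an adjusted p of up to 0.217. The first was lost in 3 of 15, which were those without vehicle 1 (adjusted p = 0.0537), without replicate number 1 (0.0809) and without replicate number 2 (0.128). Of the 50-base stretches of its annotated transcript, 7.58% also occur in other genes, among them Cyp2b13, Cyp2b19, Cyp2b9 and Cyp2b23. Reads of 50 bases from these paralogs cannot be told apart there.

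Cyp3a13 gave 4 reads over the vehicle libraries and 31 over the ISO libraries. Its ISO libraries stood at 0.132, 0.204 and 0.822 CPM, against 0.063, 0.042 and 0.039 CPM with vehicle. The rise of 2.82 ± 0.96 (edgeR adjusted p = 0.0475) leaned on ISO 3, the highest library, and was lost in 11 of 15 leave-out fits, falling to 1.62 (adjusted p = 0.429) without replicate number 3. In the Lip+ISO group Cyp3a13 varied from 0.222 to 1.05 CPM and overlapped the Lip group, which lay between 0.103 and 0.354 CPM. All Lip libraries also lay above all vehicle libraries, with 22 against 4 reads. That difference of 2.12 for the inhibitors alone did not pass in edgeR (95% interval -0.05 to 4.28). The ratio of depth-scaled reads was 4.63, with a counting interval of 1.57 to 18.5.

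Cyp2u1, an enzyme that hydroxylates long-chain fatty acids at the omega end, fell with ISO in both settings. Its vehicle libraries stood at 11.3, 11.6 and 10.96 CPM and its ISO libraries at 5.51, 5.92 and 6.92 CPM, a change of -0.88 ± 0.14 (edgeR adjusted p = 6.1e-04). With lipases inhibited it stood at 11.2, 13.2 and 11.2 CPM without ISO and at 7.03, 7.15 and 8.66 CPM with ISO, a change of -0.64 ± 0.14 (adjusted p = 0.0041). All 6 libraries with ISO lay below all 6 without. The first call held in all 15 leave-out fits, and the second was lost without replicate number 2 (adjusted p = 0.118).

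The Cyp1 genes are the classical targets of the aryl hydrocarbon receptor Ahr, a ligand-activated transcription factor. Cyp1a1 stood at 1.36, 1.76 and 1.68 CPM with vehicle and at 3.22, 6.29 and 2.98 CPM with ISO, a rise of 1.39 ± 0.45 (edgeR adjusted p = 0.0365). All ISO libraries lay above all vehicle libraries, and ISO 2 was the highest. The call was lost in 7 of 15 leave-out fits. The adjusted p was 0.189 without ISO 2, where the log2 fold change was 0.95, 0.12 without vehicle 1, 0.0634 without vehicle 2 and 0.093 without vehicle 3. Without replicate number 1, 2 or 3 it was 0.075, 0.127 and 0.124.

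With lipases inhibited, Cyp1a1 stood at 0.515, 1.87 and 0.747 CPM without ISO and at 1.29, 2.59 and 2.15 CPM with ISO. The groups overlapped, but within each replicate number the library with ISO was the higher. The difference of 0.95 did not pass without a replicate block (edgeR adjusted p = 0.159, 95% interval -0.05 to 1.95) and passed with it (1.03 ± 0.31, adjusted p = 0.0221). Under ISO the inhibitors gave a difference of -1.06 ± 0.44, which did not pass without a replicate block (edgeR adjusted p = 0.166). It passed with the block (adjusted p = 0.0291), but not every pair of libraries met the block's pairing in that comparison. The interaction for Cyp1a1 was -0.44 with an interval of -1.83 to 0.94, so that a difference between the responses was not shown.

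Cyp1b1, which oxidises oestrogens, retinoids and foreign compounds, had the highest CPM of the members and, averaged over the 12 libraries, the third highest level per kilobase. It stood at 96.5, 105 and 110 CPM with vehicle, at 102, 111 and 138 CPM with ISO, at 99.2, 97.4 and 115 CPM with Lip and at 130, 134 and 140 CPM with Lip+ISO. Lip+ISO lay above Lip in every library, a rise of 0.37 ± 0.11 (edgeR adjusted p = 0.0211). This call was lost without Lip 1 (adjusted p = 0.0656), Lip 2 (0.0882), replicate number 1 (0.0643) or replicate number 2 (0.213), and when libraries were scaled by their totals alone (log2 fold change 0.26, adjusted p = 0.129).

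Among the Cyp4 genes, Cyp4b1 rose with ISO and Cyp4v3 fell. Cyp4b1, which hydroxylates medium-chain fatty acids, stood at 18.2, 26.0 and 20.3 CPM with vehicle and at 29.4, 45.1 and 35.2 CPM with ISO, without overlap, a rise of 0.77 ± 0.24 (edgeR adjusted p = 0.033). It stood at 11.6, 23.0 and 14.8 CPM with Lip and at 17.1, 25.5 and 21.2 CPM with Lip+ISO, which overlapped but was higher within each replicate number. This difference of 0.37 did not pass without a replicate block (edgeR adjusted p = 0.305) and passed with it (0.40 ± 0.10, adjusted p = 0.00651). Under ISO, all Lip+ISO libraries lay below all ISO libraries (-0.78 ± 0.24). This difference did not pass in edgeR without a replicate block (adjusted p = 0.0656). It passed in edgeR with the block (adjusted p = 1.98e-04) and in DESeq2 (adjusted p = 0.018). Not every pair of libraries met the block's pairing in that comparison. The rise with ISO was lost in 5 of 15 leave-out fits, with an adjusted p of 0.122 without vehicle 1, 0.103 without vehicle 3, 0.145 without ISO 2, 0.0659 without ISO 3 and 0.207 without replicate number 3.

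Cyp4v3, a fatty acid omega-hydroxylase, stood at 87.3, 81.0 and 92.6 CPM with vehicle and at 70.1, 70.1 and 58.0 CPM with ISO, without overlap, a change of -0.40 ± 0.13 (edgeR adjusted p = 0.0449). With lipases inhibited it stood at 81.1, 71.6 and 87.1 CPM without ISO and at 64.3, 75.8 and 95.9 CPM with ISO, which overlapped. The call with lipolysis intact was lost in 10 of 15 leave-out fits, with an adjusted p of up to 0.158. Cyp4v3 shares 9.1% of its 50-base stretches with the neighbouring gene Klkb1.

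Cyp4f17, which had the highest level per kilobase with vehicle and with ISO but not with Lip or Lip+ISO, was lower where the inhibitors and ISO were combined. It stood at 56.9, 58.8 and 62.2 CPM with vehicle and at 61.7, 58.1 and 66.4 CPM with ISO. It stood at 49.6, 41.0 and 44.1 CPM with Lip and at 33.8, 33.2 and 37.5 CPM with Lip+ISO. All 6 libraries with inhibitors thus lay below all 6 without, and Lip+ISO lay below Lip.

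Lip+ISO against ISO gave -0.84 ± 0.09 for Cyp4f17 (edgeR adjusted p = 9.9e-05), which held in all 15 leave-out fits, and Lip+ISO against Lip gave -0.37 ± 0.09 (adjusted p = 0.0081). The second was lost without Lip 1 (adjusted p = 0.0509), replicate number 1 (0.14) or replicate number 2 (0.0588). The inhibitors alone gave -0.40 ± 0.09, which did not pass in edgeR (adjusted p = 0.258) and passed in DESeq2 (adjusted p = 0.0244). The interaction of -0.43 ± 0.13 did not pass without a replicate block (edgeR adjusted p = 0.125) and passed with it (adjusted p = 0.033). Not every pair of libraries met the block's pairing in the interaction. ISO with lipolysis intact changed Cyp4f17 by 0.07, with a 95% interval of -0.13 to 0.26. Cyp4f17 shares 5.6% of its 50-base stretches with other genes, among them Cyp4f16, Cyp4f40, Gm9705 and Cyp4f18. Reads of 50 bases cannot be told apart there.

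Cyp4f18, an enzyme that inactivates leukotriene B4 in leukocytes, was low throughout. It stood at 0.103, 0.354 and 0.166 CPM with Lip and at 2.30, 0.482 and 0.635 CPM with Lip+ISO, a rise of 2.43 ± 0.68 (edgeR adjusted p = 0.0172) from 20 to 86 reads. Lip+ISO 1 was far above the others, and without it the log2 fold change was 1.40 (adjusted p = 0.131). The call was also lost without Lip 1 (0.0706), Lip 3 (0.0661), replicate number 1 (log2 fold change 1.12, adjusted p = 0.283) or replicate number 3 (0.0984). With vehicle Cyp4f18 stood at 0.189, 0.252 and 0.274 CPM and with ISO at 0.925, 0.339 and 0.562 CPM, and that difference did not pass.

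**Figure D2:**
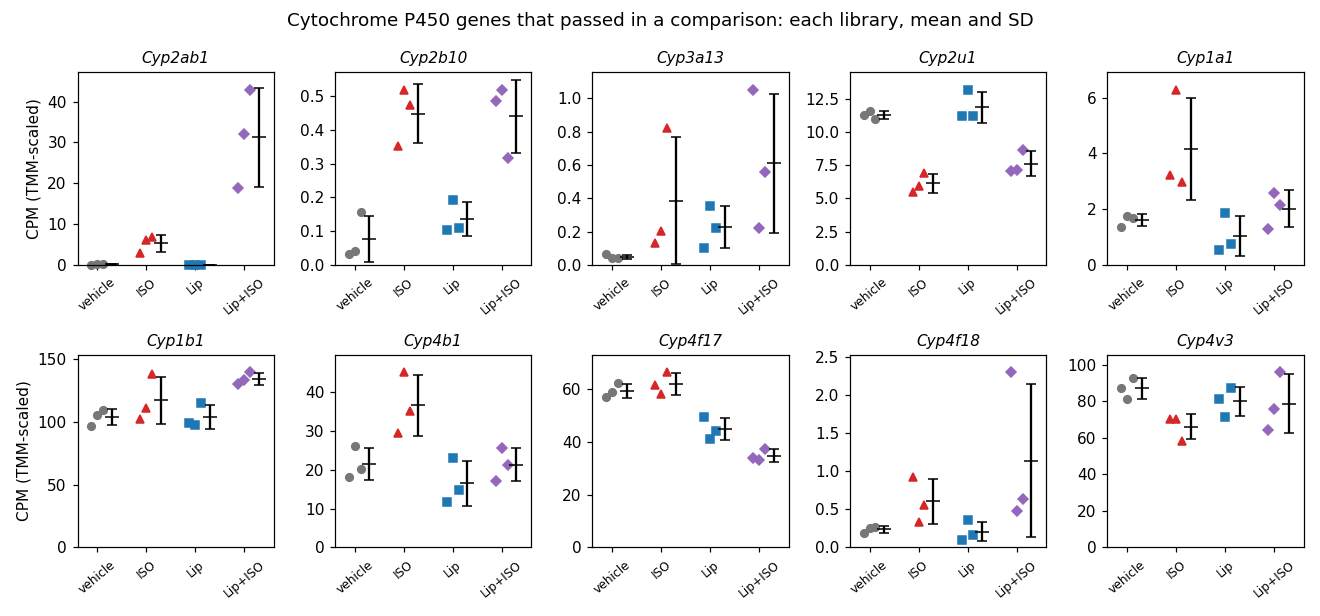
TMM-scaled CPM in every library of the 10 cytochrome P450 genes that passed in at least 1 comparison, with the mean and SD of 3 libraries to the right of each group's points and each linear axis starting at 0. Cyp2ab1 is at or under 0.126 CPM in every library without ISO, Cyp2u1 is lower in all libraries with ISO, and Cyp4f17 is lower in all libraries with inhibitors.

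For the lipase inhibitors alone, Lip against vehicle gave 0 higher and 0 lower genes of 32 in edgeR (background 0.00738% higher and 0.0443% lower), 2 genes, Cyp4f17 and Cyp4a14, at an unadjusted p under 0.05, and 1 lower gene in DESeq2. At 1 log2 unit the background was 0% higher and 0.0222% lower, and 2 higher (background 5.19%) and 1 lower member (background 5.21%) did not overlap. Under ISO the inhibitors raised 1 gene, Cyp2ab1 (3.12%, background 4.36%), and lowered 1, Cyp4f17 (3.12%, background 4.59%). Cyp2ab1 also passed at 1 log2 unit (background 0.79% higher and 1.2% lower), and 6 higher (background 11.9%) and 5 lower members (background 13.5%) did not overlap. The interaction passed for 0 genes in either direction in edgeR without a replicate block (background 0.901% higher and 0.724% lower, and 0.406% and 0.34% at 1 log2 unit), with 2 genes, Cyp2ab1 and Cyp4f17, at an unadjusted p under 0.05 and 1 higher gene in DESeq2. The comparisons share groups, so their counts are not independent.

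The other members among the 10 most abundant did not pass, and the intervals give the size of change that the data leave room for. The 95% interval of the log2 response to ISO was -0.14 to 0.28 for Cyp20a1, -0.15 to 0.31 for Cyp4f16 and -0.32 to 0.10 for Cyp2j6, of the epoxide-forming Cyp2j group. It was wider for Cyp4f13 (-0.73 to 0.07), whose ISO libraries all lay below its vehicle libraries, and for Cyp2e1 (-0.41 to 0.83), the ethanol-oxidising enzyme, whose libraries varied more. Cyp4f16 shares 24.8% of its 50-base stretches with other genes, among them Gm9705 and Cyp4f17. In all, 22 of the 32 compared genes passed in no comparison in edgeR without a replicate block. Closest to the threshold among these was Cyp4f39, a skin enzyme of ultra-long-chain fatty acid hydroxylation, at 2.08 ± 0.72 with ISO (edgeR adjusted p = 0.0503) and -2.17 ± 0.73 for Lip+ISO against ISO (adjusted p = 0.089). With a replicate block, Cyp4f39 (adjusted p = 0.0462) and Cyp2s1 (1.24 ± 0.41, adjusted p = 0.0335, against 0.0761 without the block) also passed for ISO against vehicle in edgeR. Cyp26b1 passed with the block for Lip+ISO against ISO (-1.01 ± 0.23, edgeR adjusted p = 0.00913), where not every pair of libraries met the block's pairing.

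**Figure D3:**
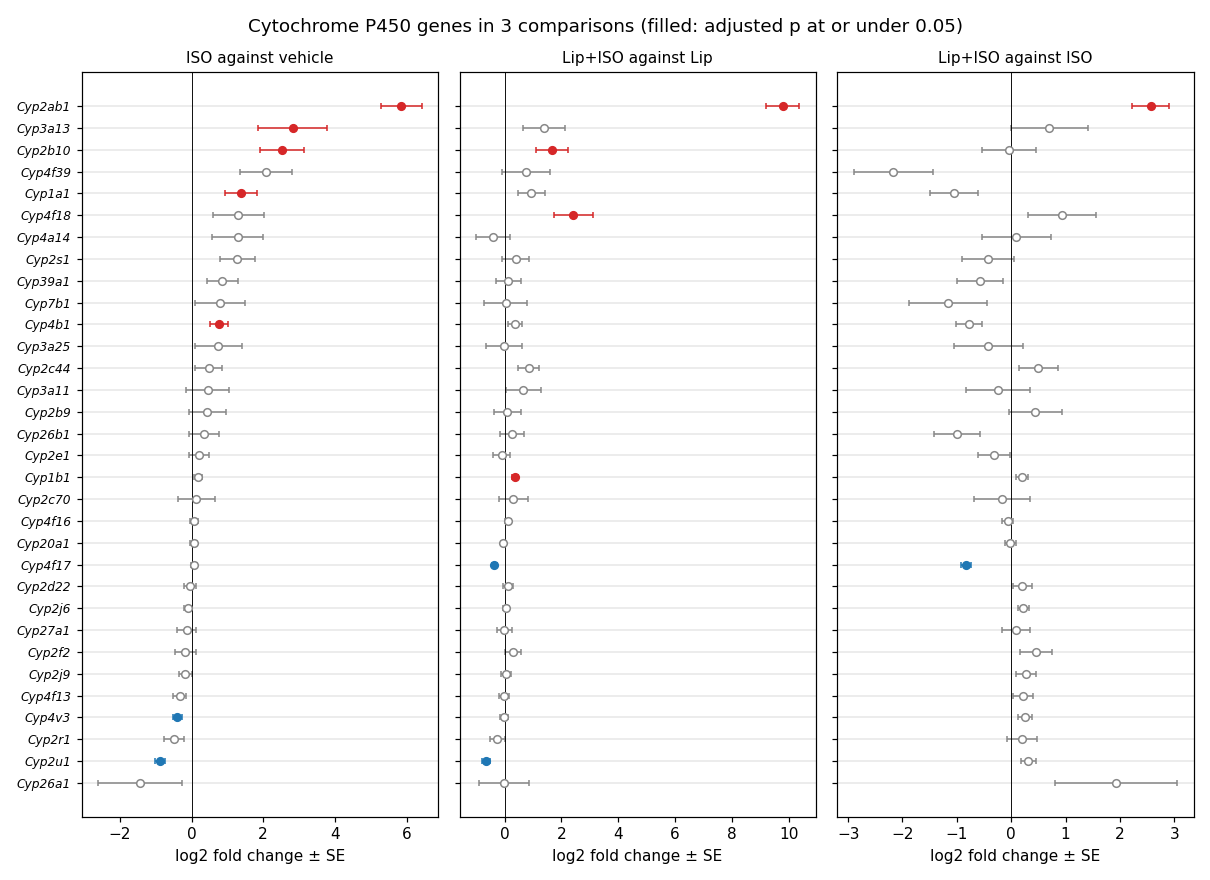
Log2 fold change ± SE of the 32 compared cytochrome P450 genes for ISO against vehicle, Lip+ISO against Lip and Lip+ISO against ISO, in the same gene order in each panel, with filled symbols for an adjusted p at or under 0.05 (red higher, blue lower). Cyp2ab1 is at the top of all 3 panels, and filled symbols are few.

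Promoter sequence is given for the 5 genes that rose with ISO, so that genes that moved the same way can be read side by side. RefSeq windows of the 250 bases before a transcript start (build GRCm38.p6, gene strand, 5′ to 3′) were at hand for 75 of the 97 members. They were at hand for 25 of the 32 compared. The Cyp1a1 window precedes a start that lies within the span of its counted row, and not the first base of that row. Capitals mark each match, on either strand, to the core that Ahr binds (GCGTG), the full cAMP element (TGACGTCA), the shorter cAMP core (TGACG, which lies within the full element) or the direct-repeat PPAR element. The windows are chr16:20325405-20325654 for Cyp2ab1, chr7:25897408-25897657 for Cyp2b10, chr5:137921620-137921869 for Cyp3a13, chr9:57697363-57697612 for Cyp1a1 and chr4:115647722-115647971 for Cyp4b1, where Cyp2ab1, Cyp3a13 and Cyp4b1 lie on the minus strand.
Cyp2ab1: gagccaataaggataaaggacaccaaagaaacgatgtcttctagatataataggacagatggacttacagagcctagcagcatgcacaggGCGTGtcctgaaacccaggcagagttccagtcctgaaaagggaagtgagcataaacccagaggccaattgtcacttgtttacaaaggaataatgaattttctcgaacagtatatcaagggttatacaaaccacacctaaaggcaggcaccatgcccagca
Cyp2b10: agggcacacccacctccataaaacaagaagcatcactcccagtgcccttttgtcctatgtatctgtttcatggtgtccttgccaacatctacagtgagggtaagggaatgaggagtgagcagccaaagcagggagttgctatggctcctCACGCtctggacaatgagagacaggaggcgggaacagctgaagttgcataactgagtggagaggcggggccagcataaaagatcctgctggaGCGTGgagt
Cyp3a13: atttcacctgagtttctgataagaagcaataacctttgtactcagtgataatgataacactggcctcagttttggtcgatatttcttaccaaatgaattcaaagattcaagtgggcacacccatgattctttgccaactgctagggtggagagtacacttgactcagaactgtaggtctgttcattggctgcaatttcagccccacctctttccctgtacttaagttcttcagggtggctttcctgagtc
Cyp1a1: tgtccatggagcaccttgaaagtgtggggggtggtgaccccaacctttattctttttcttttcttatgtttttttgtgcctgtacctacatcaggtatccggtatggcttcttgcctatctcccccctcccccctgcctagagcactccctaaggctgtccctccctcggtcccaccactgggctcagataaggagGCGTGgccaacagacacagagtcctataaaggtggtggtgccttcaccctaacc
Cyp4b1: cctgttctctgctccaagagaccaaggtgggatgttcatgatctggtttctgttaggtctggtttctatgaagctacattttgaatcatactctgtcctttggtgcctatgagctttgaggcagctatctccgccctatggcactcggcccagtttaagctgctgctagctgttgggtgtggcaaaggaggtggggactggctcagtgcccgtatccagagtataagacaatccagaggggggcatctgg

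GCGTG occurs once in the windows of Cyp2ab1 and Cyp1a1, in 2 places in that of Cyp2b10 (once as its reverse complement) and not in those of Cyp3a13 and Cyp4b1. None of the 5 windows holds the full cAMP element, the shorter core or the PPAR element. Over all 32851 windows of this length, 28.2% hold GCGTG, 17.8% TGACG, 1.55% TGACGTCA and 0.0335% the PPAR element. Over the 26 windows of the compared members, 34.6% hold GCGTG, 7.69% hold TGACG and 0% hold either of the others. Such matches are a description of letters and not of binding.

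Other genes of the same pathways were read from lists put together with earlier results of these data known. Among 10 compared redox partners, Por, which feeds electrons to the microsomal enzymes, rose by 0.24 ± 0.08 with ISO (edgeR adjusted p = 0.0469) and by 0.25 ± 0.08 for Lip+ISO against Lip (adjusted p = 0.0335). The haem-degrading enzyme Hmox1 rose with ISO, from 1949 ± 276 to 5153 ± 185 CPM (SD, n = 3), and fell for Lip+ISO against ISO (log2 fold change -1.01 ± 0.28, edgeR adjusted p = 0.0421). The other 8, the mitochondrial ferredoxin Fdx1 and its reductase Fdxr among them, passed in no comparison. The calls for Por were lost in 14 and 9 of 15 leave-out fits. The fall of Hmox1 was lost in 12 of 15 (adjusted p up to 0.303), and it held without Lip 3, without Lip+ISO 1 and without replicate number 1.

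Of 11 compared genes of the Ahr list, 2 rose with ISO in each setting and 9 did not pass. The ADP-ribosyltransferase Tiparp went from 47.0 ± 2.67 to 228 ± 43.0 CPM with ISO (2.27 ± 0.14, edgeR adjusted p = 3.1e-07) and rose by 2.06 ± 0.14 for Lip+ISO against Lip (adjusted p = 3.1e-07). The stress response factor Nfe2l2 rose by 0.67 ± 0.09 and 1.11 ± 0.09. Ahr itself was at 2.11 ± 1.01 CPM with vehicle and 3.13 CPM with ISO (edgeR adjusted p = 0.234), and its repressor Ahrr, another Ahr target, gave 0.99 ± 0.66 (adjusted p = 0.285). For ISO against vehicle Tiparp, Nfe2l2 and Cyp1a1 thus rose, and Ahr, Ahrr and Cyp1b1 (0.17, edgeR adjusted p = 0.251) were not shown to move. For Lip+ISO against ISO the log2 fold change was 0.42 for Nfe2l2 and -1.06 for Cyp1a1, which did not pass there without a replicate block.

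In steroid and vitamin D metabolism, Star and Vdr rose, while Cyp11a1, Cyp24a1 and Cyp27b1 were too low to compare. Star, which carries cholesterol into mitochondria, went from 50.8 ± 4.52 to 581 ± 72.0 CPM with ISO (3.52 ± 0.15, edgeR adjusted p = 2.2e-08) and rose by 4.66 ± 0.16 for Lip+ISO against Lip (adjusted p = 1.3e-09). Cyp11a1, the side-chain cleavage enzyme that acts on that cholesterol, had 27 reads in all 12 libraries together, 11 of them in ISO 2. Likewise Vdr, the vitamin D receptor, went from 7.11 ± 1.61 to 329 ± 30.2 CPM with ISO (5.54 ± 0.27, edgeR adjusted p = 4.4e-08) and rose by 6.44 ± 0.27 for Lip+ISO against Lip (adjusted p = 5.2e-09). Cyp24a1, the classical Vdr target that inactivates vitamin D, had 42 reads over the 12 libraries and at most 12 in a library, and Pfdn4 overlaps it on the other strand by 711 bases, where its reads are uncertain because the strand setting of the counting is not given. Cyp27b1, which activates vitamin D, had 64 reads in all.

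Of 13 compared retinoid genes, 1 rose and 2 fell with ISO, and 1 rose and 3 fell for Lip+ISO against Lip. The retinoic acid receptor Rarg fell by 1.34 and 1.88 on the log2 scale. The retinoic acid hydroxylase Cyp26b1, at 5.85 ± 1.20 CPM with vehicle and 7.38 ± 2.84 CPM with ISO, did not pass for ISO against vehicle. Among the members, Cyp26b1, Cyp2s1, Cyp4a14 and Cyp4f39 did not meet the rule by which genes were named here and were picked out after their values were seen. Of 15 compared steroid and sterol genes 2 rose and 1 fell with ISO, and of 8 epoxide and eicosanoid genes 1 rose. Of 13 compared nuclear receptors 2 rose and 3 fell with ISO, 4 rose and 3 fell for Lip+ISO against Lip, and 3 rose and 3 fell for Lip+ISO against ISO. The nuclear receptor Nr1i2, a regulator of Cyp3a genes in liver, was too low to compare.

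Markers of other cell types moved with ISO as well. The adipocyte sums overlapped, with 33760 to 42910 CPM for vehicle and 28260 to 37570 CPM for ISO, and 1 of 8 adipocyte markers passed as lower. The 8 macrophage markers in the table summed to between 51.2 and 65.5 CPM with vehicle and to between 107.5 and 162.6 CPM with ISO, and 5 of the 8 passed as higher. The 6 endothelial markers summed to between 89.2 and 174 CPM with vehicle and to between 222 and 402 CPM with ISO (1 of 6 passed), the 6 fibroblast and progenitor markers to between 357 and 628 and between 699 and 918 CPM (3 of 6 passed), and the 6 mesothelial markers to between 24.8 and 56.6 and between 65.4 and 75.6 CPM (1 of 6 passed). No marker of these 4 lists was at 0 in all 12 libraries. With Lip and Lip+ISO, the endothelial sums ranged from 44.2 to 156 and from 72.2 to 213.5 CPM, and the macrophage sums from 55.5 to 61.0 and from 69.7 to 119 CPM. The fibroblast and progenitor sums ranged from 479 to 498 and from 433 to 597 CPM, and the mesothelial sums from 14.4 to 59.8 and from 41.9 to 51.8 CPM. For Lip+ISO against Lip, 2 of 8 macrophage, 1 of 6 endothelial, 0 of 6 fibroblast and progenitor and 1 of 6 mesothelial markers passed as higher. For Lip+ISO against ISO, 3 of 6 fibroblast and progenitor markers and 1 of 6 endothelial markers passed as lower. In each of the 4 groups the 3 libraries had the same order by Cyp4b1 and by the endothelial sum, with library 2 highest, and Cyp1a1 was also highest in library 2 of each group. The fibroblast and progenitor, mesothelial and smooth muscle sums were highest in library 2 with vehicle, ISO and Lip+ISO, but not with Lip. The adipocyte sum was lowest in library 2 with vehicle, ISO and Lip, but not with Lip+ISO. Cyp4f18 and the macrophage sum were both highest in Lip+ISO 1 and in Lip 2 within their groups, but not in the same library with vehicle or ISO. In the ISO group Cyp4f18 was highest in ISO 1, where the macrophage sum was lowest (107.5 CPM). The part of these cells in the changes of Cyp1a1, Cyp4b1, Cyp4f18 and the other members was not tested, and in bulk RNA a change in the number of cells of a type and a change in RNA per cell cannot be told apart.

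The remaining marker lists were read in the same way. Of 3 compared mast cell markers 1 rose with ISO, and the 4 smooth muscle markers did not pass there. The eosinophil sum went from between 0.0783 and 0.126 CPM with vehicle to between 3.92 and 10.3 CPM with ISO. It was at most 0.290 CPM with Lip and between 2.51 and 10.6 CPM with Lip+ISO. Only 1 of its markers was compared, which rose by 8.64 on the log2 scale with ISO and by 8.72 for Lip+ISO against Lip. The Leydig sum moved through Star, which stood on that list, from between 47.9 and 59.0 to between 504 and 648 CPM, and 1 of 2 compared markers passed. The hepatocyte sum stayed between 2.06 and 4.67 CPM with and without ISO and its 3 compared markers did not pass, and the epididymal epithelium sum was at most 0.516 CPM in any library, with no marker high enough to compare.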

How the data were processed

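RNA-seq of 12 eWA libraries (4 groups of 3) was analysed from the gene count table. Per the labels and the study's methods, the authors aligned reads with STAR 2.4.2a to mm9 and used HOMER and iRNA-seq to count reads over RefSeq genes; the deposited values are raw counts, with multiple reads at 1 position collapsed, so very high genes may be understated. The strand setting of the counting is not given in the sources used here. Group names follow the labels.

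Here, genes were kept by filterByExpr (13543 kept, minimum count 10), scaled by TMM (factors 0.924 to 1.07) and fitted with 1 mean per group in edgeR 4.0.16 (R 4.3.3, limma 3.58.1) with two-sided quasi-likelihood tests and Benjamini-Hochberg adjustment over all 13543 genes. A gene passed at an adjusted p at or under 0.05. Intervals are at 95%. Levels between genes are CPM per kilobase of the counted length in the deposited table. Depth ran from 22632220 to 43707557 counts, where 3 counts correspond to 0.0678 to 0.132 CPM. The scripts were tested on simulated data.

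Members and lists were chosen with earlier results of these data known. Named members were those that passed in a comparison, the 10 with the highest level per kilobase, Cyp1a1, Cyp1b1, Cyp2ab1, and genes too low to compare that reached 10 counts. Genes outside the family were taken from the lists where they passed or stood for their list. The lists were redox partners, Ahr, epoxides and eicosanoids, retinoids, steroids and sterols, nuclear receptors, and markers of adipocytes, macrophages, endothelium, fibroblasts and progenitors, mesothelium, mast cells, eosinophils, smooth muscle, Leydig cells, hepatocytes and epididymal epithelium.

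The study describes independent experiments, but whether libraries came from separate mice is not given, so p-values measure the spread between these libraries. Deviations from group means correlated between libraries of the same number in 17 of 18 pairs over 0.1 (range 0.0373 to 0.369), and in 0 of 36 pairs of different numbers. The exception was ISO 3 with Lip+ISO 3 (r = 0.0373). Each of these libraries correlated over 0.1 with vehicle 3 (0.139 and 0.269) and with Lip 3 (0.178 and 0.232). The replicate numbers were therefore read as pairing the libraries for ISO against vehicle, Lip+ISO against Lip and Lip against vehicle, with the block as an alternative fit. For Lip+ISO against ISO and the interaction not every pair met this, and the blocked values there carry that limit. Alternatives were DESeq2 1.42.0, a replicate block, library totals, other filters, a minimum fold, only the 2 groups compared, and leaving out libraries or replicate numbers. Sequence windows are from RefSeq.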

Additional observations from a re-analysis of the deposited data

Results flagged for a closer look

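Among the genes of the pathway lists, 4 had a response to ISO that differed with the lipase inhibitors, by the interaction test of edgeR over all compared genes. The response with inhibitors minus the response without was 1.14 on the log2 scale for Star (adjusted p = 0.0113), for Hsd17b7, an enzyme of sterol synthesis, 1.08 (adjusted p = 0.00731), for Abca1, a cholesterol exporter, 1.03 (adjusted p = 0.0338) and for Pparg, the main adipocyte nuclear receptor, 0.58 (adjusted p = 0.0274). The first 3 rose with ISO in the presence of the inhibitors, and Star (3.52) and Abca1 (0.49) also rose with ISO without them. Pparg fell with ISO alone, from 338 ± 16.5 to 246 ± 19.4 CPM (SD, n = 3), and did not pass with inhibitors. Leaving out a library or a replicate number lost the call in 10 of 15 fits for Abca1 (adjusted p up to 0.321), in 11 of 15 for Pparg (up to 0.33), and in 2 of 15 for Star (up to 0.188) and Hsd17b7 (up to 0.122), in both cases without replicate number 2 or 3. In edgeR without a replicate block 0 cytochrome P450 genes passed this test in either direction (2 at an unadjusted p under 0.05, and 1 in DESeq2). Groups of 3 are too small for a test of outlying libraries. The counts of libraries of 1 group differed by a chi-square per degree of freedom of 16.6 (Lip 1 and Lip 2) to 79.5 (Lip+ISO 1 and Lip+ISO 3).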

How the results depend on the processing

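No called change of a member reversed under any alternative. Counts of cytochrome P450 genes that passed moved as follows. For ISO against vehicle, 5 higher became 3 with a stricter filter of 1 CPM in 3 libraries, and 2 lower became 0 at a minimum of 1 log2 unit. For Lip+ISO against Lip, 4 higher became 2 with library totals, with the stricter filter and with only the 2 groups compared, and 2 lower became 0 at the minimum fold. For Lip against vehicle, DESeq2 gave 1 lower. For Lip+ISO against ISO, 1 lower became 2 with DESeq2, without a filter and with only the 2 groups, and 0 at the minimum fold. Without a filter, 3 genes were too low to compare in place of 65, by that setting's construction. Cyp2b10 was under 1 CPM in every library, and Cyp3a13 and Cyp4f18 reached 1 CPM in Lip+ISO 1 alone, so the stricter filter left them out. No called fall reached 1 log2 unit, so the lower counts at the minimum fold also follow from that setting. The cause of the other moves was not tested. Lost without a library left out were Cyp3a13 with no filter (ISO against vehicle, adjusted p = 0.0511), Cyp4b1 with library totals (0.0601), Cyp1b1 for Lip+ISO against Lip with library totals (0.129), Cyp4f18 with only the 2 groups (0.0503) and Cyp2b10 for Lip+ISO against Lip with library totals (0.0522), DESeq2 (0.0574) and no filter (0.108).

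Leaving out a library or a replicate number gave 1 to 6 higher and 1 to 2 lower members for ISO against vehicle, 1 to 4 higher and 0 to 2 lower for Lip+ISO against Lip, 0 for Lip against vehicle and for the interaction in both directions, and 1 higher and 1 to 2 lower for Lip+ISO against ISO. For ISO against vehicle the count of higher members was 1 without vehicle 1, 2 without vehicle 3, and 3 without ISO 2 or ISO 3. For Lip+ISO against Lip it was 1 without Lip 1, and 2 without Lip 3 or Lip+ISO 1, and the count of lower members was 1 without Lip 1. For Lip+ISO against ISO the count of lower members was 2 without Lip 1 or Lip 2.

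A replicate block gave, for ISO against vehicle, 7 higher and 2 lower cytochrome P450 genes and, for Lip+ISO against Lip, 6 higher and 2 lower, and no called member was lost in those comparisons. The gained members were Cyp2s1 and Cyp4f39 in the first and Cyp1a1 and Cyp4b1 in the second. For Lip+ISO against ISO and the interaction the pairing was not met by every pair. There the block gave 4 lower in place of 1, the gained ones being Cyp1a1 (adjusted p = 0.0291), Cyp4b1 (1.98e-04) and Cyp26b1 (0.00913), and for the interaction 1 higher in place of 0, Cyp2ab1 (0.0101), and 1 lower in place of 0, Cyp4f17 (0.033). In DESeq2 the interaction gave 1 higher. Among the 26 genes of the pathway lists that passed, 912 of 1088 alternative values kept their call, 176 lost it and 0 reversed. Depth limits the 65 genes too low to compare and the genes with under 50 reads in a group.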
